A study of Homo sapiens with 23 samples.

Results

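The 10 genes AXIN2, LGR5, ASCL2, NKD1, RNF43, ZNRF3, LEF1, TCF7, NOTUM and SP5, which canonical Wnt signalling switches on and many of which act back on the pathway, were followed in the gut and liver cell lines of an integrated gut-liver-on-a-chip. They were chosen by symbol, and 10 of the 60564 genes listed in each of the 23 libraries matched. mRNA-seq covered 11 libraries of Caco-2, an established line from a human colorectal tumour, and 12 of HepG2, an established line from a human liver tumour. Each line was grown in the chip alone (mono-culture) or with the other line in the same circulating medium (co-culture), and either received free fatty acids (FFAs, 1 mM in total of palmitic and oleic acid) for 1 day or none. Every one of the 8 groups held 3 libraries except Caco-2 co-culture control, which held 2. Each tissue was thus represented by 1 tumour line, without other cell types. The values were TPM, relative transcript abundances that are scaled by transcript length and library total and keep no read depth, so no counting error can be given.

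In canonical Wnt signalling, a complex built on AXIN and APC marks beta-catenin for destruction, and a Wnt ligand bound to Frizzled and LRP receptors stops that complex, so that beta-catenin enters the nucleus and works with TCF and LEF factors. Many of the genes then transcribed restrain the pathway or extend it, and in the gut they mark stem cells at the base of the crypt, while in the liver they mark hepatocytes around the central vein. Caco-2 cells are known to carry a truncated APC, and HepG2 cells a beta-catenin that lacks the part through which the complex marks it, so the pathway is held active in both lines by different lesions.

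SP5 encodes a zinc-finger repressor that is transcribed directly downstream of beta-catenin, and its promoter is shown because it was the member promoter with the most matches to the TCF/LEF core motif. RefSeq promoter windows (GRCh38.p14, 250 bases before to 50 after a start site) were available for 4 members, RNF43, LEF1, TCF7 and SP5, and not for AXIN2, LGR5, ASCL2, NKD1, ZNRF3 and NOTUM. In these windows 2 sets of letters were searched on both strands, with matches in view when they were chosen, CTTTGAT or CTTTGAA and CTTTGTT or CTTTGTA, which cannot overlap at the same position. The first set matched 3 times in the SP5 window, 148, 109 and 84 bases before the start site, and 0 times in the windows of RNF43, LEF1 and TCF7. At least 1 match was found in 6.86% of all 35116 promoter windows, and 3 or more in 9 of them (0.0256%). The second set matched 1 time, 50 bases before the second TCF7 start site, against 7.77% of all windows with a match. A match describes the letters only. The stretch with the 3 matches lies on chr2:170715177-170715276, plus strand, and is printed 5′ to 3′ with the matches on either strand in capitals.
SP5: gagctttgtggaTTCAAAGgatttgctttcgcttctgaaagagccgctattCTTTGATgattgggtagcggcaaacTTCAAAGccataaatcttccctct

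The libraries carried the markers of their labels with exceptions. The hepatocyte genes ALB (20460 to 33859 TPM in HepG2, 321 to 769 TPM in Caco-2) and TF (5680 to 9359 against 4.17 to 133 TPM) separated the lines, as did the intestinal genes CDX2 (60.4 to 136 TPM in Caco-2, at most 0.73 TPM in HepG2) and CDH17 (354 to 480 against at most 2.75 TPM). VIL1 was at 408 to 551 TPM in Caco-2 and still at 153 to 244 TPM in HepG2. LGALS4 (1.17 to 11.35 against at most 1.51 TPM) and KRT20 (0.46 to 2.13 against 0.02 to 0.57 TPM) were low and overlapped between the lines. GPA33 was low in Caco-2 (0.39 to 2.47 TPM) and at most 0.03 TPM in HepG2. CDX1 was nearly absent from both lines (at most 0.18 TPM), FABP2 went against its label (at most 0.03 TPM in Caco-2, 0.63 to 2.91 TPM in HepG2), the hepatocyte gene TTR overlapped (227 to 342 TPM in Caco-2, 232 to 649 TPM in HepG2), APOA1 had a median of 12031 TPM there against 9628 TPM in HepG2, and the summed hepatocyte list in Caco-2 was 15.5% to 30.2% of its HepG2 mean. Between 19259 and 23689 genes were above 0 TPM per library. The 4 HepG2 libraries numbered 3 stood apart from the other 8, since 11.7% of the genes tested in HepG2 did not overlap between the number-3 libraries and the rest, compared with 3.04% in Caco-2. RNA of the other line was followed with 34 HepG2 and 63 Caco-2 marker genes (at least 50 TPM in the own line's mono-culture controls, at most 1 TPM in the other's). HepG2 markers reached 0.1% to 0.183% of their HepG2 level in mono-cultured Caco-2 and 0.0883% to 2.08% in co-cultured Caco-2. Because the mono-culture controls served to choose both sets of markers, low levels there were fixed in advance. The mono-cultured Caco-2 libraries with FFAs, not used for this choice, held 0.111% to 0.183%. For some of the results named below that touch either point, values without libraries concerned are given beside them. In bulk libraries, fewer cells expressing a gene and less RNA per cell cannot be told apart.

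**Figure D1:**
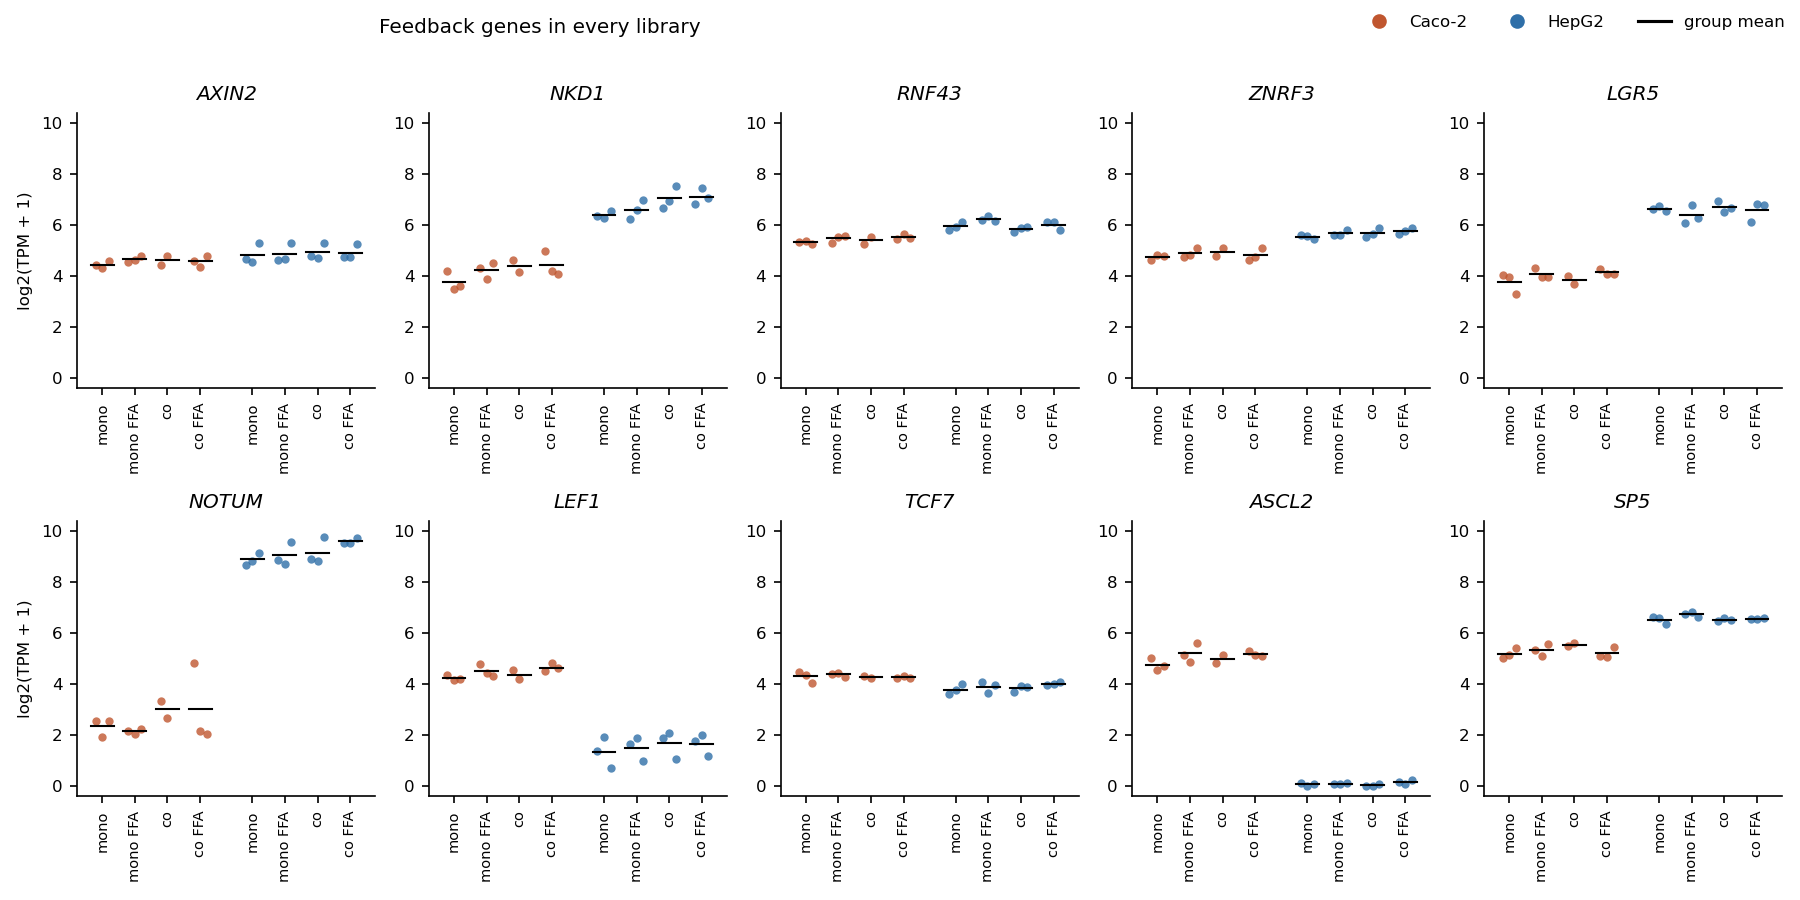
Level of each of the 10 genes in every library, as log2(TPM + 1), by cell line and condition (mono, mono-culture; co, co-culture; FFA, 1 mM FFAs for 1 day), with 1 point per library and a bar at the group mean. NOTUM, NKD1, LGR5 and SP5 lay higher in all 12 HepG2 libraries, LEF1 and ASCL2 lay higher in all 11 Caco-2 libraries, and 1 co-cultured Caco-2 library stood out in NOTUM.

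The 10 genes were all detected in Caco-2 within a narrower range of levels, whereas in HepG2 they spread from NOTUM as the highest to ASCL2 near 0. In Caco-2 the order of mean TPM was RNF43 (42.5 ± 3.96, SD, n = 11), SP5, ASCL2, ZNRF3, AXIN2, LEF1, TCF7, NKD1, LGR5 and NOTUM (6.46 ± 7.13), and the ranges of each pair of neighbours in this order overlapped. In HepG2 the order was NOTUM (602 ± 178, SD, n = 12), NKD1, LGR5, SP5, RNF43, ZNRF3, AXIN2, TCF7, LEF1 and ASCL2 (0.0567 ± 0.0516). There the ranges did not overlap between NOTUM and NKD1, between ZNRF3 and AXIN2, between AXIN2 and TCF7, between TCF7 and LEF1, or between LEF1 and ASCL2.

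The comparison between the lines was averaged over the 4 conditions with limma on log2(TPM + 1), and p-values were adjusted by the Benjamini-Hochberg method over all 16495 genes tested. Fold values come from this log2 difference and so are ratios of TPM + 1, which for low genes are smaller than ratios of TPM. All 10 members passed, 3 higher in Caco-2 (ASCL2, LEF1, TCF7) and 7 higher in HepG2 (NOTUM, LGR5, NKD1, SP5, ZNRF3, RNF43, AXIN2). Of these, ASCL2 met the 1 TPM minimum through Caco-2 only, so its call was set by the filter. The 2 lines differed widely, and 79.0% of all genes tested passed (49.8% higher in Caco-2 and 29.2% higher in HepG2), so a count of this kind says little about the members. The median difference of the members, Caco-2 minus HepG2, was −0.70 on the log2 scale against 0.24 over all genes tested, and the median size was 1.93 against 0.63. For 8 members, all but AXIN2 and TCF7, no Caco-2 library overlapped any HepG2 library, as for 42.7% of all genes. The median over all genes moved from 0.24 to 0.05 with median-of-ratios scaling and to −0.0036 with quantile normalization, and the share of calls that were higher in Caco-2 moved from 63.1% to 52.5% and 50%. No member changed direction with either scaling.

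Among the genes that act inside the cell, AXIN2 encodes the scaffold of the beta-catenin destruction complex (chromosome 17, 65528563 to 65561648, GRCh38) and is the most general readout of the pathway. It ranged from 18.6 to 26.7 TPM in Caco-2 with a median of 22.9, and from 22.4 to 38.7 TPM in HepG2 with a median of 25.7. These ranges overlapped, and the highest 4 values were the HepG2 libraries numbered 3. The log2 difference was −0.32 (SE 0.11, adjusted p = 0.0152, limma), 1.25-fold higher in HepG2, and 72.7% of all genes tested had a difference of at least this size. Without the 4 HepG2 libraries numbered 3 it was −0.12 (adjusted p = 0.146) and was no longer called, and without the first Caco-2 co-culture control library the adjusted p was 0.0507. In no single condition was AXIN2 called. NKD1, which binds Dishevelled and dampens the signal (chromosome 16, 50548396 to 50649249), ranged from 10.3 to 30.7 TPM in Caco-2 (median 17.2) and from 75.3 to 185 TPM in HepG2 (median 107). All HepG2 libraries lay above all Caco-2 libraries, with a log2 difference of −2.59 (SE 0.14, adjusted p = 1.3e-12), 6.01-fold.

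At the cell surface, RNF43 (chromosome 17, 58353676 to 58417595) and ZNRF3 (chromosome 22, 28883572 to 29057488) are paired ubiquitin ligases that remove Frizzled receptors, and LGR5 (chromosome 12, 71439798 to 71586310) is the R-spondin receptor that holds them in check and marks stem cells of the crypt. RNF43 ranged from 37.3 to 48.6 TPM in Caco-2 (median 43.2) and from 51.8 to 81.4 TPM in HepG2 (median 64.5). ZNRF3 ranged from 23.7 to 33.7 TPM (median 26.6) and from 42.6 to 57.9 TPM (median 48.7), respectively. The 2 ligases differed in the same direction by similar and small amounts, without overlap, with log2 differences of −0.58 (SE 0.06) for RNF43 and −0.82 (SE 0.07) for ZNRF3, and 53.4% and 39.3% of all genes differed by as much. LGR5 differed more, from 8.74 to 19.0 TPM in Caco-2 (median 14.9) and from 67.1 to 123 TPM in HepG2 (median 99.1). All HepG2 libraries were above all Caco-2 libraries, 6.16-fold on average (log2 difference −2.62, SE 0.11, adjusted p = 2.06e-14).

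NOTUM (chromosome 17, 81952507 to 81961840) is a secreted enzyme that inactivates Wnt ligands by removing their lipid. Its difference in log2(TPM + 1) was the largest in size among the 10. In HepG2 the control libraries held 409.9, 459 and 571 TPM in mono-culture and 481, 449 and 867 TPM in co-culture, and the FFA libraries held 469, 416 and 762 TPM in mono-culture and 744, 745 and 852 TPM in co-culture. In Caco-2 the mono-culture libraries held 2.75 to 4.90 TPM, and the co-culture libraries 9.17 and 5.29 TPM without FFAs and 27.3, 3.46 and 3.06 TPM with FFAs. Even the highest Caco-2 library was far below the lowest HepG2 library, and the 2 highest Caco-2 libraries were both co-cultured and numbered 1. The log2 difference was −6.56 (SE 0.25, adjusted p = 4.63e-15), 94.3-fold higher in HepG2, and 0.352% of all genes tested differed by as much. Leaving out 1 library at a time gave −6.79 to −6.44.

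Among the nuclear members, LEF1 and TCF7 encode the DNA-binding partners of beta-catenin, and both were higher in Caco-2. LEF1 (chromosome 4, 108047545 to 108168956) ranged from 16.9 to 27.5 TPM in Caco-2 (median 20.4) and from 0.61 to 3.24 TPM in HepG2 (median 2.21), with no overlap and a log2 difference of 2.91 (SE 0.16, adjusted p = 1.56e-12), 7.51-fold. Without the 4 HepG2 libraries numbered 3, which held the least LEF1, it was 2.62 (adjusted p = 1.04e-12). TCF7 (chromosome 5, 134114681 to 134151865) ranged from 15.5 to 21.4 TPM (median 18.7) and from 11.01 to 16.05 TPM (median 14.2). These ranges overlapped slightly, and the log2 difference of 0.42 (SE 0.07, adjusted p = 2.11e-05) was not called with quantile normalization (0.13, adjusted p = 0.145). ASCL2, the crypt stem cell transcription factor (chromosome 11, 2268498 to 2270588), ranged from 22.4 to 47.2 TPM in Caco-2 (median 32.8) and was at most 0.17 TPM in HepG2, where 3 libraries listed it at 0. This was the widest separation on the Caco-2 side, a log2 difference of 4.95 (SE 0.08, adjusted p = 1.44e-20) that became 7.73 with a pseudocount of 0.1 in place of 1. Because ASCL2 entered the comparison through Caco-2 only, its direction was fixed by the filter and the p-value adds no support. The level of Caco-2 markers was 0.127% to 0.242% of Caco-2 in mono-cultured HepG2, grown without Caco-2, and 0.19% to 0.613% in co-cultured HepG2. Over all HepG2 libraries this level would by itself give 0.0411 to 0.198 TPM of ASCL2, against 0 to 0.17 TPM listed. Whether it stands for Caco-2 RNA was not tested. SP5 (chromosome 2, 170715337 to 170718078), whose promoter is printed above, ranged from 31.2 to 47.7 TPM in Caco-2 (median 38.9) and from 80.5 to 111 TPM in HepG2 (median 95.1). The SP5 ranges did not overlap and differed by −1.26 on the log2 scale (SE 0.07), 2.40-fold higher in HepG2.

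**Figure D2:**
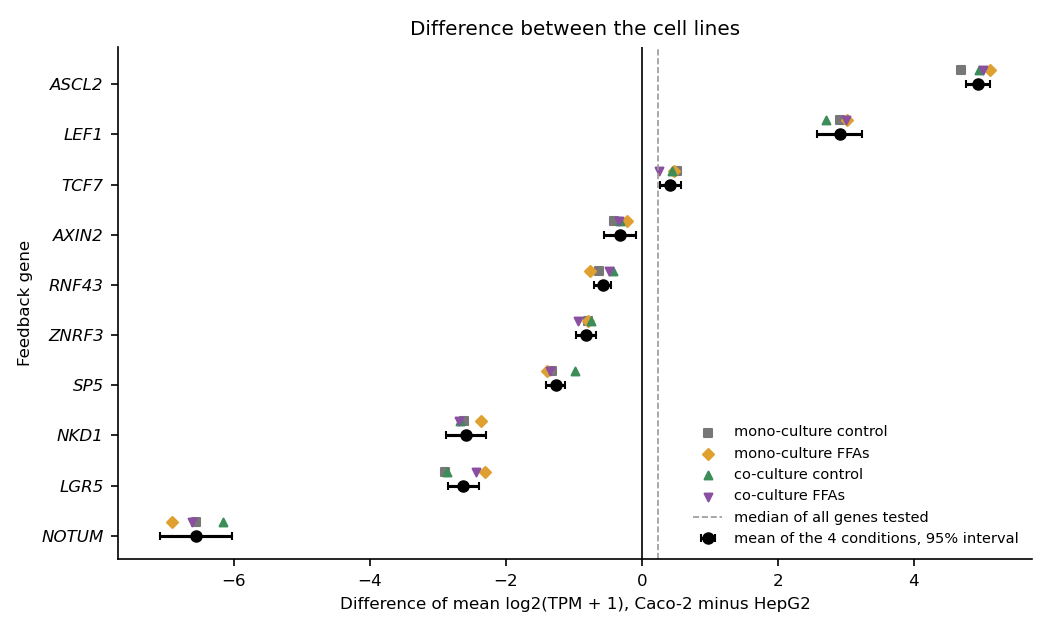
Difference of mean log2(TPM + 1), Caco-2 minus HepG2, for each gene, with circles and bars for the mean of the 4 conditions and its 95% interval from limma, and small symbols for each condition. ASCL2, LEF1 and TCF7 lay on the Caco-2 side and 7 genes on the HepG2 side, from −0.32 (AXIN2) to −6.56 (NOTUM), in each of the 4 conditions.

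The same comparison within single conditions called 9 members in mono-culture control (62.4% of all genes passed), 9 in mono-culture with FFAs (61.1%), 9 in co-culture control (58.8%) and 8 in co-culture with FFAs (61.0%). AXIN2 was the member not called in each, with adjusted p between 0.117 and 0.422, joined in co-culture with FFAs by TCF7 (log2 difference 0.25, SE 0.14, adjusted p = 0.125). The difference of each member kept its sign in all 4 conditions. For NOTUM it ranged from −6.91 to −6.16, and for ASCL2 from 4.69 to 5.13.

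FFAs for 1 day did not move any member past the threshold in either line. In Caco-2, averaged over both cultures, 0 of 10 members were called at an adjusted p under 0.05 by limma (0% of all genes), with 2 members at an unadjusted p under 0.05 (3.99% of all genes). The differences, FFAs minus control, ran from −0.10 (NOTUM) to 0.32 (ASCL2). LEF1 held 19.5, 16.9 and 17.1 TPM without FFAs and 26.3, 20.4 and 19.1 TPM with FFAs in mono-culture, and 22.2 and 17.2 TPM without and 21.5, 27.5 and 23.4 TPM with FFAs in co-culture. The treated libraries were higher on average, and they overlapped with the controls in both cultures. Its log2 difference was 0.28 (SE 0.11, 95% interval 0.03 to 0.53, unadjusted p = 0.0323, adjusted p = 0.99, limma), and that of ASCL2 was 0.32 (SE 0.14, 95% interval 0.02 to 0.62, unadjusted p = 0.0408, adjusted p = 0.99).

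In HepG2, ASCL2 did not reach the 1 TPM minimum, and 0 of the 9 members tested were called for FFAs (0% of all genes), with 1 at an unadjusted p under 0.05 (3.49% of all genes). This was RNF43, which held 55.5, 60.2 and 68.8 TPM without FFAs and 72.0, 81.4 and 70.5 TPM with FFAs in mono-culture, and 51.8, 57.3 and 59.2 TPM without and 68.9, 68.7 and 54.6 TPM with FFAs in co-culture. The mono-culture groups did not overlap (68.8 against 70.5 TPM at the nearest), while the co-culture groups did. The share of all genes without overlap between these mono-culture groups was not taken, so nothing is drawn from this separation. Averaged over both cultures, the log2 difference of RNF43 was 0.23 (SE 0.09, unadjusted p = 0.0233, adjusted p = 1, limma), and without the libraries numbered 3 it was 0.37 (adjusted p = 0.526). Across the 9 genes the differences lay between −0.20 (LGR5) and 0.30 (NOTUM), and their 95% intervals together ran from −0.53 to 0.70. The effect of FFAs was not shown to differ between the lines for any of the 9 members tested in both lines (0 called, 0.0182% of all genes, and 1 with an unadjusted p under 0.05, 2.99% of all genes). This was LGR5, with 0.31 in Caco-2 and −0.20 in HepG2, a difference of 0.51 (SE 0.22, unadjusted p = 0.0318, adjusted p = 1, limma).

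Co-culture was compared with mono-culture to ask whether crosstalk between the lines went with a change in these genes. In HepG2, 0 of 9 members were called in the mean of both treatments (0.0561% of all genes), and 2 of 9, NKD1 and NOTUM, had an unadjusted p under 0.05 (12.5% of all genes). This call depended on the model. With a block for the library number, whose meaning the labels do not give, NKD1 (adjusted p = 0.0317, limma) and NOTUM (adjusted p = 0.0498) were called. The block also raised the calls among all 14255 genes tested above the 8 found without it, to a number given at the end. NKD1 held 80.5, 76.5 and 91.6 TPM in mono-culture control, 75.3, 94.3 and 124 TPM in mono-culture with FFAs, 102, 122 and 185 TPM in co-culture control and 112, 176 and 132 TPM in co-culture with FFAs. Of the 6 co-culture libraries, 3 were above every mono-culture library, and the other 3 were below the highest of these. Its log2 difference was 0.59 (SE 0.17, 95% interval 0.23 to 0.96, unadjusted p = 0.00409, adjusted p = 0.189, limma). For NOTUM, with the values given above, the difference was 0.41 (SE 0.18, 95% interval 0.01 to 0.81, unadjusted p = 0.0459, adjusted p = 0.387), and its mono- and co-culture libraries overlapped. Without the libraries numbered 3 the differences were 0.62 for NKD1 (adjusted p = 0.149) and 0.43 for NOTUM (adjusted p = 0.0897). The other 7 members lay between −0.17 (RNF43) and 0.24 (LEF1).

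In Caco-2, 0 of 10 members were called for co-culture in the mean of both treatments (0% of all genes) and 0 had an unadjusted p under 0.05 (10.5% of all genes). NOTUM and NKD1 again had the largest differences. NOTUM differed by 0.76 (SE 0.44, 95% interval −0.21 to 1.72, adjusted p = 0.583, limma), and by 0.30 (adjusted p = 0.533) without the first co-culture library with FFAs, which held 27.3 TPM. That library also had the highest level of HepG2 markers, 2.08% of HepG2, and this share of the mean HepG2 level would give 12.5 TPM of NOTUM. The next library in both measures was the first co-culture control, with 9.17 TPM of NOTUM, a marker level of 0.825% and 4.97 TPM from that share. These shares do not include NOTUM of Caco-2 itself, which was at 2.75 to 4.90 TPM in mono-culture. They were taken of the mean of all 12 HepG2 libraries, 602 TPM, while co-cultured HepG2 with FFAs averaged 780 TPM. The part of HepG2 RNA in the difference was not tested. NKD1 differed by 0.40 (SE 0.20, adjusted p = 0.524), and by 0.26 without the same library, which held 30.7 TPM of NKD1 against 2.38 TPM from its marker level. The co-culture effect was not shown to differ between the lines for any of the 9 members tested in both lines (0 called, 0.533% of all genes, and 0 with an unadjusted p under 0.05, 14.6% of all genes). Within a single culture or treatment, 0 members were called in any of the 8 comparisons (at most 0.0199% of all genes). In Caco-2, 1 member had an unadjusted p under 0.05 for FFAs in mono-culture (2.61% of all genes), and 0 for FFAs in co-culture (2.83%) or for co-culture without FFAs (5.43%) or with them (6.09%). In HepG2, 1 member did for FFAs in mono-culture (2.24%), 0 for FFAs in co-culture (1.84%), and 1 for co-culture without FFAs (7.53%) and with them (5.63%).

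**Figure D3:**
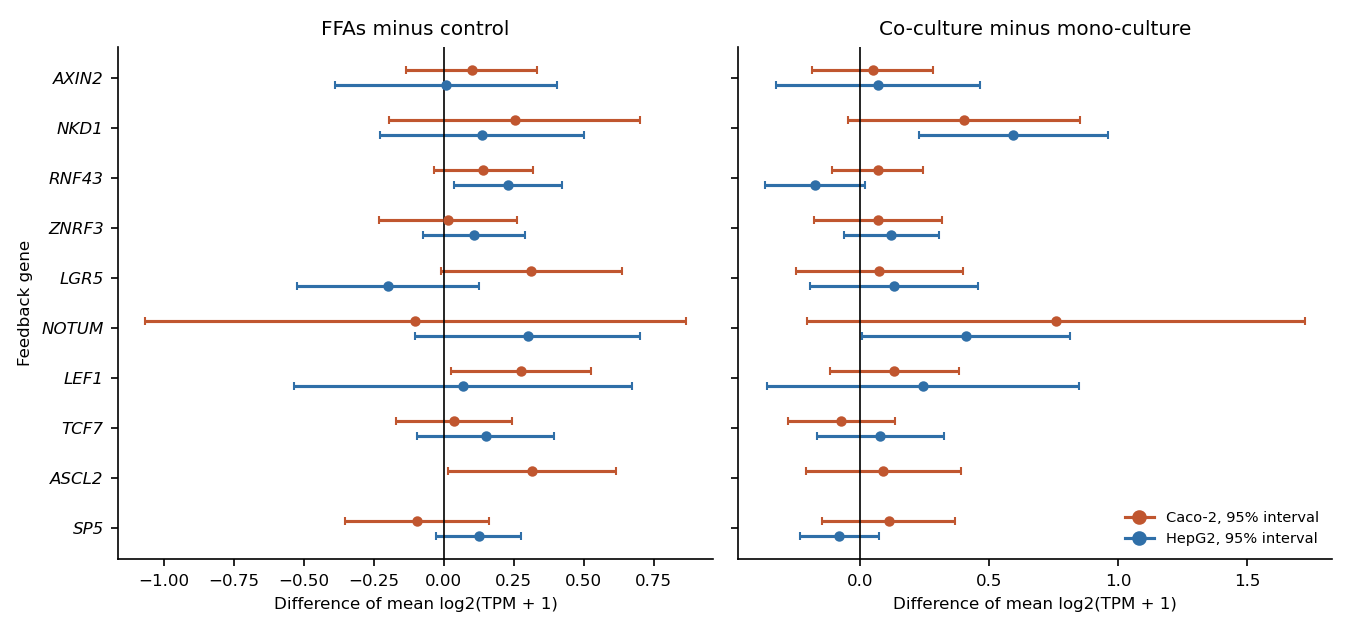
Differences of mean log2(TPM + 1) for FFAs minus control (mean of both cultures) and for co-culture minus mono-culture (mean of both treatments) in each line, with 95% intervals from limma. The intervals of LEF1 and ASCL2 (FFAs, Caco-2), RNF43 (FFAs, HepG2), and NKD1 and NOTUM (co-culture, HepG2) do not cross 0, though none of these was called after adjustment in the fit drawn, and ASCL2 is not drawn for HepG2, where it was not tested.

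In HepG2, AXIN2 and LEF1 separated the libraries numbered 3 from the others in all 4 conditions. AXIN2 held 37.4 to 38.7 TPM in the 4 HepG2 libraries numbered 3 and 22.4 to 26.6 TPM in the 8 numbered 1 or 2. LEF1 held 0.61 to 1.24 TPM in the same 4 libraries and 1.57 to 3.24 TPM in the other 8. Neither gene overlapped between these sets of libraries, and the 2 genes stood apart in opposite directions, as 11.7% of all genes tested did in either direction. The other 8 members overlapped between the sets, as did all 10 in Caco-2. What the library number stands for is not given in the labels.

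Because AXIN2 formed separate clusters of HepG2 libraries, its relation to the other members was taken over the 8 HepG2 libraries numbered 1 or 2 and over the 11 Caco-2 libraries, 18 relations in all. In these sets none passed after Benjamini-Hochberg adjustment of the permutation p-values. In Caco-2 the closest was ZNRF3 (r = 0.749, permutation p = 0.00924, adjusted p = 0.166, and rho = 0.682, permutation p = 0.0259, adjusted p = 0.233), whose r was 0.880 without the 2 libraries farthest from the median of AXIN2. Over the 8 Caco-2 libraries numbered 1 or 2, the r of ZNRF3 was 0.5465. In HepG2 the closest was NKD1 (r = 0.706, exact permutation p = 0.0475, adjusted p = 0.285, and rho = 0.810, exact permutation p = 0.0218, adjusted p = 0.233, n = 8), whose r was 0.933 without the 2 farthest libraries. In these 8 libraries AXIN2 held 25.3 to 26.6 TPM in co-culture and 22.4 to 24.3 TPM in mono-culture. NKD1 held 102 to 176 TPM and 75.3 to 94.3 TPM, so both genes separated fully by culture. The permutations exchanged libraries across cultures, so this relation cannot be told apart from a shared difference between cultures. Over all 12 HepG2 libraries, the set first intended, the relation of AXIN2 to LEF1 passed by Pearson's r (adjusted p = 0.0268) and not by rho (adjusted p = 0.144), with the 4 libraries numbered 3 apart from the rest. In the 8 others AXIN2 and LEF1 had r = 0.247.

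The genes whose log2(TPM + 1) was most like that of AXIN2 within a line were different in the 2 lines. In HepG2 they were PDE9A (Pearson r = 0.989 over 12 libraries, of 14254 genes compared), TNFRSF21, SLC6A14, HS3ST3A1 and RFLNB (r = 0.976), and each of the 5 also had no overlap between the libraries numbered 3 and the rest. SLC6A14, an amino acid transporter, held 20.5 to 39.3 TPM in the 4 libraries numbered 3 and 0.12 to 2.1 TPM in the other 8. In Caco-2 they were RALY (r = 0.938 over 11 libraries, of 15080 genes compared), AP002748.4, NAP1L1, ABCC1 and PFKFB3 (r = 0.893). With so many genes and few libraries, such r are a description of these libraries.

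**Figure D4:**
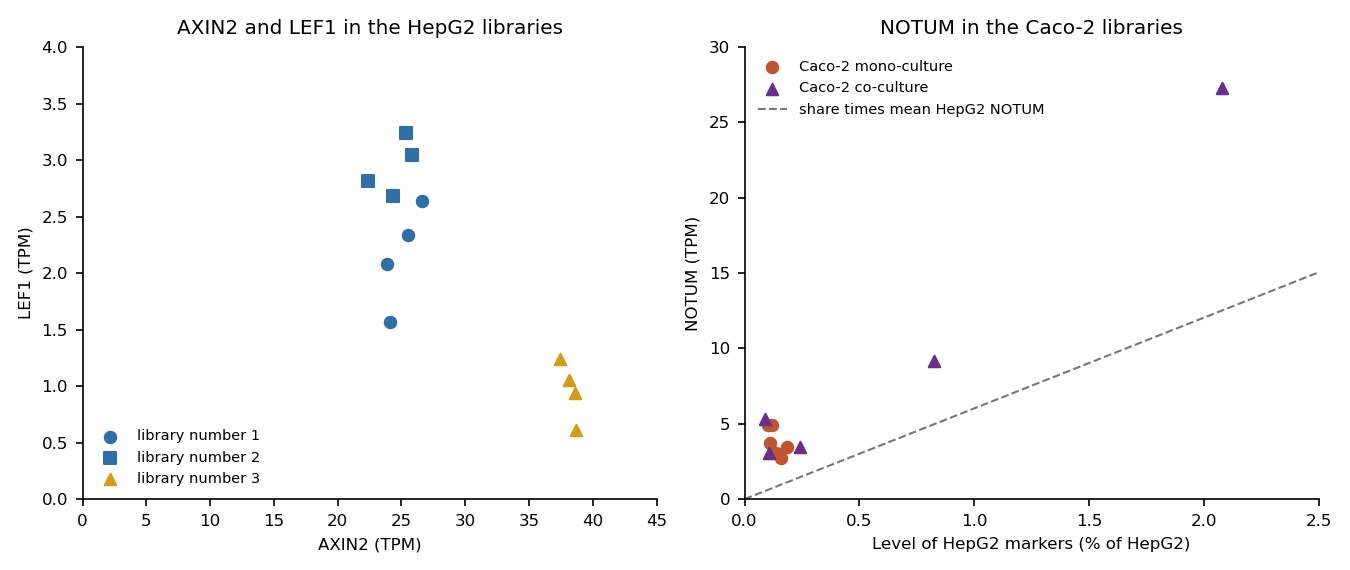
Left, LEF1 against AXIN2 (both TPM) in the 12 HepG2 libraries by library number; right, NOTUM (TPM) in the 11 Caco-2 libraries against the level of 34 HepG2 marker genes, as a percent of their HepG2 level, with a dashed line for that percent of the mean HepG2 NOTUM. The 4 libraries numbered 3 lie apart at 37.4 to 38.7 TPM of AXIN2, and the 2 Caco-2 libraries with the highest marker levels, 0.825% and 2.08%, hold the most NOTUM, 9.17 and 27.3 TPM.

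The rest of the pathway was described with 8 lists of genes, again as Caco-2 minus HepG2 in the mean of the 4 conditions, against a median of 0.24 and a median size of 0.63 over all genes tested. Of all genes tested, 49.8% were called higher in Caco-2 and 29.2% higher in HepG2. A gene entered when any 1 of the 8 groups averaged at least 1 TPM. For genes that did so in 1 line only, the direction followed from this filter. Of the genes named below, FZD7, APCDD1, TLE2, EPHB2 and SLC1A2 averaged under this minimum in the line where they were lower. In the fits of Caco-2 and HepG2 alone, 6 and 2 ligands, 10 and 8 receptors, and 6 and 8 other inhibitors reached it. So did 13 and 12 genes of the destruction complex and transducers, and 11 and 8 nuclear partners. Among intestinal targets 9 and 6 did, and among pericentral targets 4 and 5. Of 19 Wnt ligands, 6 were tested, and 5 were called higher in Caco-2 and 1 higher in HepG2 (median difference 1.79). They ranged from WNT3 (4.15 ± 0.439 TPM, n = 11, and 5.68 ± 1.43 TPM, n = 12) at −0.34 (SE 0.11, adjusted p = 0.00909, limma) to WNT11 (12.5 ± 4.99 and 1.69 ± 0.75 TPM) at 2.30 (SE 0.16, adjusted p = 4.82e-11). Among 10 tested receptors, 6 were higher in Caco-2 and 3 higher in HepG2, and FZD6 was not called (median difference 0.42). With either median-of-ratios scaling or quantile normalization, 4 receptors were higher in Caco-2 and 3 in HepG2. The Frizzled receptor FZD7 was at 16.8 ± 2.23 TPM in Caco-2 and 0.484 ± 0.262 TPM in HepG2 (log2 difference 3.60), and FZD9 was at 1.02 ± 0.304 and 5.06 ± 1.73 TPM (−1.54). Of the R-spondins and their other receptors only LGR4 was tested, and it was 0.20 higher in HepG2 on the log2 scale (SE 0.08, adjusted p = 0.0254).

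Of 14 secreted and membrane inhibitors other than the members, 9 were tested, with 5 higher in Caco-2 and 4 higher in HepG2 (median difference 1.00). DKK3, of the Dickkopf family, held 192 ± 36.5 TPM in Caco-2 and 1.26 ± 0.687 TPM in HepG2, a log2 difference of 6.48 (SE 0.17), against −6.56 for NOTUM. APCDD1, a membrane inhibitor, held 0.737 ± 0.346 and 7.34 ± 6.74 TPM (−1.88, SE 0.36). All 13 genes of the destruction complex and signal transducers were tested, with 6 higher in Caco-2, 3 higher in HepG2 and 4 not called (median difference 0.16). CTNNB1, which encodes beta-catenin, was among those not called, at 139 ± 6.58 TPM in Caco-2 and 143 ± 32.1 TPM in HepG2 (log2 difference 0.01, SE 0.14, adjusted p = 0.948). The extremes were APC2 at 1.15 and DVL1, a Dishevelled, at −1.68. The balance of this list turned with the scaling, with 4 genes higher in Caco-2 and 5 higher in HepG2 under either one, and a median difference of −0.06 with median-of-ratios scaling and −0.11 with quantile normalization. CTNNB1 was not called with either, at −0.22 and −0.17.

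Of the 11 nuclear partners, 8 were higher in Caco-2 and 2 higher in HepG2, and PYGO2 was not called (median difference 0.91). All 11 reached the 1 TPM minimum in Caco-2 and 8 in HepG2, so the direction of the others followed from the filter. With either scaling PYGO2 was called higher in HepG2, and 7 partners were higher in Caco-2 and 3 in HepG2. The co-repressors TLE2 and TLE1 were the extremes. TLE2 held 27.5 ± 3.76 TPM in Caco-2 and 0.483 ± 0.341 TPM in HepG2 (4.30), whereas TLE1 held 28.8 ± 5.5 and 104 ± 19.0 TPM (−1.79). Of 10 other Wnt targets of the intestine, 9 were tested, and 9 reached the minimum in Caco-2 but 6 in HepG2. Among the 9, 5 were higher in Caco-2 and 3 higher in HepG2, with TNFRSF19 not called (median difference 0.61). They ranged from PROX1 (9.99 ± 2.20 and 50.7 ± 6.07 TPM, −2.24) to the crypt receptor EPHB2 (30.9 ± 4.07 and 0.207 ± 0.152 TPM, 4.72). Of 8 pericentral liver targets, CYP2E1, CYP1A2 and LECT2 did not meet the 1 TPM minimum and were not tested. Among the 5 tested, 4 were higher in HepG2 (median difference −0.83), from the glutamate transporter SLC1A2 (0.637 ± 0.346 and 19.3 ± 6.65 TPM, −3.58). The exception was OAT, ornithine aminotransferase, at 992 ± 185 TPM in Caco-2 and 80.4 ± 5.53 TPM in HepG2 (3.60). GLUL, the glutamine synthetase that is the classical pericentral gene, was at 936 ± 109 and 1051 ± 155 TPM (−0.16, SE 0.07, adjusted p = 0.0333), and was not called with quantile normalization (−0.11, adjusted p = 0.131). For FFAs, for co-culture and for the difference of these effects between the lines, 0 genes of the 8 lists were called in the averaged comparisons.

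**Figure D5:**
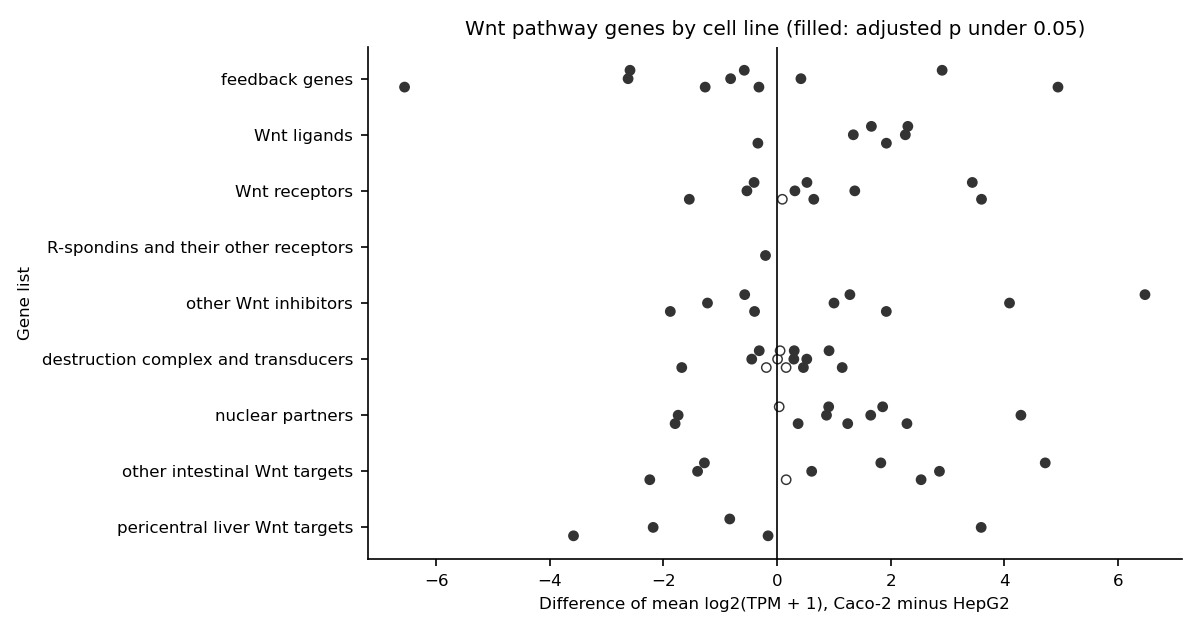
Difference of mean log2(TPM + 1), Caco-2 minus HepG2, mean of the 4 conditions, for each tested gene of the 10 feedback genes and the 8 other pathway lists, with 1 point per gene, filled where the adjusted p from limma was under 0.05. NOTUM at −6.56 and DKK3 at 6.48 are the outermost points on either side.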

How the data were processed

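The authors deposited TPM, 1 table for each library. Per their methods, reads of rRNA, tRNA and mitochondria were first filtered out (Bowtie2 2.1.0), STAR 2.7.1a aligned what remained to GRCh38, and RSEM 1.3.0 gave the TPM. Neither step could be varied here. TPM keep no depth, so low values carry an unknown counting error. The labels describe medium with a little serum during treatment, the methods medium without it.

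The labels gave each library's group and replicate number. The study's methods describe repeated, independent experiments and biological replicates, but no source used here says which libraries share an experiment, so p-values measure the spread between these libraries, part of which may be technical. log2(TPM + 1) of genes with a group mean of at least 1 TPM was fitted with limma 3.58.1 (R 4.3.3, eBayes with trend), both lines together for line differences and each line alone for FFAs and co-culture, with Benjamini-Hochberg adjustment at 0.05 over all genes. limma was tested on simulated data. Permutation tests were two-sided, exact for 8 libraries and with 100000 resamples for 11. The HepG2 relations of AXIN2, intended for all 12 libraries, were limited to 8 after the clusters had been seen. Coordinates come from GENCODE v44 on GRCh38.

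Members and lists were chosen with earlier results of these data known. Named genes were, per list, the tested gene with the largest line difference in each direction, any gene called for FFAs or co-culture (none was), and the 5 genes most like AXIN2 in each line. CTNNB1, GLUL and the genes not called were named after their values were seen. Alternatives were a pseudocount of 0.1, other scalings and filters, limma without trend, a replicate block, and each library left out.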

Additional observations from a re-analysis of the deposited data

How the results depend on the processing

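Over the alternatives with all libraries and without the 4 HepG2 libraries numbered 3 (a choice made after seeing the data), the number of members called between the lines was 9 or 10 in the mean of the 4 conditions and 8 to 10 in single conditions. With 1 library left out it was 9 or 10 in the mean and 7 to 9 in single conditions. For FFAs and co-culture it was 0 under every alternative with one exception. With a replicate block, HepG2 co-culture called 2 members, NKD1 (0.59, adjusted p = 0.0317, limma) and NOTUM (0.41, adjusted p = 0.0498). Of all 14255 genes tested, 492 were then called in place of 8. The block changed no other count of members by more than 1. The numbers were not taken to pair the libraries, since the labels give them no meaning. Deviations from group means of same-numbered libraries correlated with a median r of 0.088 in Caco-2 and 0.305 in HepG2. Of these pairs, 7 of 15 and 15 of 18 were above 0.1, and the lowest in HepG2 was 0.0284. For different numbers the median r was −0.119 and −0.226. In all, 7 of 11 and 10 of 12 libraries correlated best with their own number. The HepG2 libraries thus shared structure by number, which the fit without the block leaves in the spread.

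Differences near 0 changed sign. The FFA difference of ZNRF3 in Caco-2 (0.01) became −0.0042 with median-of-ratios scaling, −0.0054 with quantile normalization and −0.031 with the replicate block, and that of AXIN2 in HepG2 (0.0071) became −0.0038 with median-of-ratios scaling. With 1 library left out, the FFA differences in Caco-2 ranged from −0.064 to 0.094 (ZNRF3), −0.026 to 0.085 (TCF7) and −0.56 to 0.14 (NOTUM), and in HepG2 from −0.10 to 0.13 (AXIN2) and −0.091 to 0.22 (LEF1). The co-culture differences ranged from −0.029 to 0.13 (AXIN2), −0.042 to 0.15 (LGR5) and −0.0082 to 0.15 (ZNRF3) in Caco-2 and from −0.019 to 0.19 (AXIN2) in HepG2. The causes were not tested.

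With 2 or 3 libraries a group and unknown depth, the 95% intervals for FFAs and co-culture were wide, for NOTUM in Caco-2 from −0.21 to 1.72 on the log2 scale for co-culture in the mean of both treatments and up to 2.15 within the FFA libraries.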
